A study of Homo sapiens with 6 samples.

Results

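The Krüppel-like factors described here were 10 genes of the KLF family, namely KLF2, KLF3, KLF4, KLF5, KLF6, KLF7, KLF9, KLF10, KLF11 and KLF13, chosen by symbol from the 30267 genes of the deposited table. All 10 were found in the table, and 9 passed the filter on low values, with KLF9 as the exception. RNA had been sequenced in bulk from SW839, an established human line of renal cell carcinoma. There were 3 libraries with a short hairpin against RNF25 (shRNF25) and 3 with the pLKO vector as control (shControl). The deposited names of the shRNF25 libraries share 1 stem with running numbers. The control names differ in form, and shControl replicate 3 is named only PLKO. Whether the controls were prepared as a set, or alongside the shRNF25 libraries, is not given in the sources used here. An effect of library preparation was not tested. RNF25 is a RING-type E3 ubiquitin ligase, and the study asked what its depletion does to gene expression in these cells. Per the study's methods, stable lines were made by lentiviral infection and puromycin selection, so that cells of both groups carried a pLKO-type vector and had gone through selection. The labels name 1 hairpin construct and no separate infections, so an effect of RNF25 loss and an effect of that hairpin or line cannot be told apart. The treatment text of all 6 samples speaks of the RNF25 plasmid, and the groups rest on titles and genotype labels.

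KLF proteins bind DNA through a conserved run of zinc fingers at their C-terminal end, which recognizes GC-rich and CACCC-type sites, a property they share with the SP factors. Their N-terminal parts differ and set the partners they recruit. KLF3, together with KLF8 and KLF12, binds the CtBP corepressors. KLF2, KLF4, KLF5, KLF6 and KLF7 act largely as activators and work with acetyltransferases such as p300. KLF9, KLF10, KLF11 and KLF13, with KLF14 and KLF16, bind the SIN3A corepressor. In the kidney, KLF4 and KLF6 have been studied in podocytes and tubule cells after injury, and KLF5 in the collecting duct.

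RNF25 itself had normalized counts of 694.2, 533.5 and 536.4 in shControl and 214.1, 245.7 and 265.0 in shRNF25 (log2 fold change -1.27, SE 0.15, adjusted p = 0.000585). STK36 covers 386 exonic bases of RNF25 on the opposite strand and had a log2 fold change of 0.59 (adjusted p = 0.013), and reads in the shared bases cannot be told apart where counting did not use the strand. Reads counted on genes per library ran from 18647460 to 19943154. The authors' scaling factors were 0.905, 0.975 and 0.927 in shControl and 1.10, 1.08 and 1.05 in shRNF25. Division by them raised the values of every control and lowered those of every shRNF25 library, so small gaps between the groups depend on the scaling. Of the 6 renal epithelial markers in the table, KRT8, KRT18, KRT19, EPCAM and PAX8 passed the filter and CA9 did not, with their summed normalized count between 70681 and 89939 in shControl and between 79907 and 83644 in shRNF25. The endothelial marker sum was 479.8 to 686.4 in shControl and 421.1 to 565.9 in shRNF25, mostly PECAM1, while VWF, TEK, CLDN5 and TIE1 did not pass the filter and CDH5 fell (log2 fold change -4.12) after passing it only through shControl. Leukocyte markers summed to 36.5 to 57.5 in shControl and 27.6 to 48.3 in shRNF25. Fibroblast markers summed to 1114 to 1298 in shControl and 999.2 to 1189 in shRNF25, mostly COL1A1. COL1A1 was lower (log2 fold change -0.37, limma adjusted p = 0.0479) and under 1.5-fold. COL3A1 was higher (log2 fold change 4.59) after passing the filter only through shRNF25, and DCN stood at 1.03 or less in every library. The part of these markers in the results was not tested.

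KLF7 was the only one of the 9 tested members that changed past the thresholds, a Benjamini-Hochberg adjusted p below 0.05 together with a change of 1.5-fold or more, and it fell to 36.2% of its control level. KLF6 was lower in all 3 shRNF25 libraries, at 70.3% of control, with an adjusted p of 0.0134 and a fold change under 1.5. No member was called higher. Of all 16554 genes tested with limma, 8.65% were called higher and 7.1% lower, so that 1 of 9 members lower and 0 of 9 higher is a share near or under that of all genes. At an unadjusted p below 0.05, 0 of 9 members were higher and 2 lower, against 17.3% and 18% of all tested genes. At an adjusted p below 0.05 with any fold change, again 0 were higher and 2 lower, against 10.5% and 10.8%. With edgeR and with DESeq2, 0 members were called higher and 1 lower. Of all 16554 genes, edgeR called 1525 higher and 1133 lower, and DESeq2 called 1414 higher and 1220 lower. The groups did not overlap, in the lower direction, for 3 members (KLF6, KLF7 and KLF10), against 21.8% of all tested genes, and for 0 members in the higher direction, against 20.7%. In these bulk libraries, less RNA per cell and fewer cells with the transcript cannot be told apart.

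Promoter sequence is shown for KLF7 and KLF6, the members with an adjusted p below 0.05, so that the letters before their starts can be read beside the values. Both stretches come from RefSeq for GRCh38.p14, are written 5′ to 3′ on the minus strand, which carries both genes, and lie before every GENCODE 29 transcript of the gene. Capitals mark the words found. They are the CACCC word, which reads as its reverse complement on this strand, the CCAAT word, likewise in reverse complement, and the GC box.
KLF7, chr2:207167268-207167496: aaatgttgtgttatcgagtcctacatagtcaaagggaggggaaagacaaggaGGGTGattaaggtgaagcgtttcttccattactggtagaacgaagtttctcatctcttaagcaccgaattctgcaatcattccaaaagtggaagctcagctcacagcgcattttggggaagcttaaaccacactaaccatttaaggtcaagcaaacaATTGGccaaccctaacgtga
KLF6, chr10:3785282-3785459: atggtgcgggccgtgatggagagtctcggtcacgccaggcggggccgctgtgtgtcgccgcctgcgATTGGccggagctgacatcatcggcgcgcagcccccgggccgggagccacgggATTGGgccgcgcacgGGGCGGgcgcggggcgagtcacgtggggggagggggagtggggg

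In the KLF7 stretch of 229 bases, the CACCC word began 198 bases before the RefSeq start and the CCAAT word 41 bases before it. KLF7 has 4 listed starts, and counts per gene do not say which was used. In the KLF6 stretch of 178 bases, CCAAT words began 184 and 131 bases before the start and the GC box GGGCGG began 116 bases before it. Over windows around the start, 8 of the 10 members had an entry. The GC box stood in windows of 7 of these 8 genes, CCAAT in 5, CACCC in 4, TATAAA in 1 (KLF5) and the cyclic-AMP response word TGACGTCA in 1 (KLF11), each searched on both strands. TGACTCA and TGAGTCA, which are AP-1 words, stood in 0. Among 35116 promoters of the same length, the shares were 45.0% for the GC box, 34.6% for CCAAT, 59.9% for CACCC, 11.5% for TATAAA, 1.85% for TGACGTCA and 4.95% for the AP-1 words. Members have up to 4 windows each, so the count of genes and the share of single windows are not on the same footing. These matches are a description of letters, not of bound sites.

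Among the activators, KLF7 lies on chromosome 2 from 207074137 to 207167267 on the minus strand (GRCh38, GENCODE 29). It is a broadly expressed member known for its role in axon growth and for restraining adipocyte differentiation. In the order of the replicate numbers, kept for all genes here, its normalized counts were 1063, 656.7 and 633.5 in shControl and 273.4, 326.0 and 252.6 in shRNF25. Every shRNF25 library lay below every shControl library, and shControl replicate 1 stood above the other two controls. The shControl mean was 784.5 ± 241.8 (SD, n = 3) and the shRNF25 mean 284.0 ± 37.8 (SD, n = 3). The log2 fold change was -1.43 with an SE of 0.20 and a 95% interval from -1.89 to -0.97 (adjusted p = 0.00158), a fall of 2.69-fold. The exact permutation test of the 6 values gave p = 0.1, the smallest that 3 against 3 allows. The interval of no other tested member reached into that of KLF7. KLF7 was called in each of 16 alternative analyses of single members, with log2 fold changes from -1.56 to -1.19.

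KLF7-IT1, a transcript annotated inside an intron of KLF7 on the same strand, had normalized counts of 2.21, 1.03 and 1.08 in shControl and 2.73, 2.77 and 1.91 in shRNF25, below the filter. Of the 8313 words of 50 bases in the longest coding transcript of KLF7, 16 were also found in another gene, the pseudogene KLF7P1. For the other 9 members the number of shared words was 0. The search covered exact words in annotated transcripts, so near copies and shorter matches were not examined.

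KLF6, an activator that is induced after tissue injury and that also gives rise to splice variants, lies on chromosome 10 from 3775996 to 3785281 on the minus strand. Its normalized counts were 2737, 2317 and 2201 in shControl and 1748, 1701 and 1652 in shRNF25. The groups did not overlap, and the shRNF25 libraries lay close together. The means were 2418 ± 282.2 (SD, n = 3) and 1700 ± 47.9 (SD, n = 3). The log2 fold change was -0.50 with an SE of 0.11 and a 95% interval from -0.76 to -0.25 (adjusted p = 0.0134), so that the interval includes both values under and values over 1.5-fold. With shRNF25 replicate 1, 2 or 3 left out, the log2 fold change was -0.52, -0.50 or -0.48, about as large, and the adjusted p was 0.0604, 0.0682 or 0.0789.

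**Figure D1:**
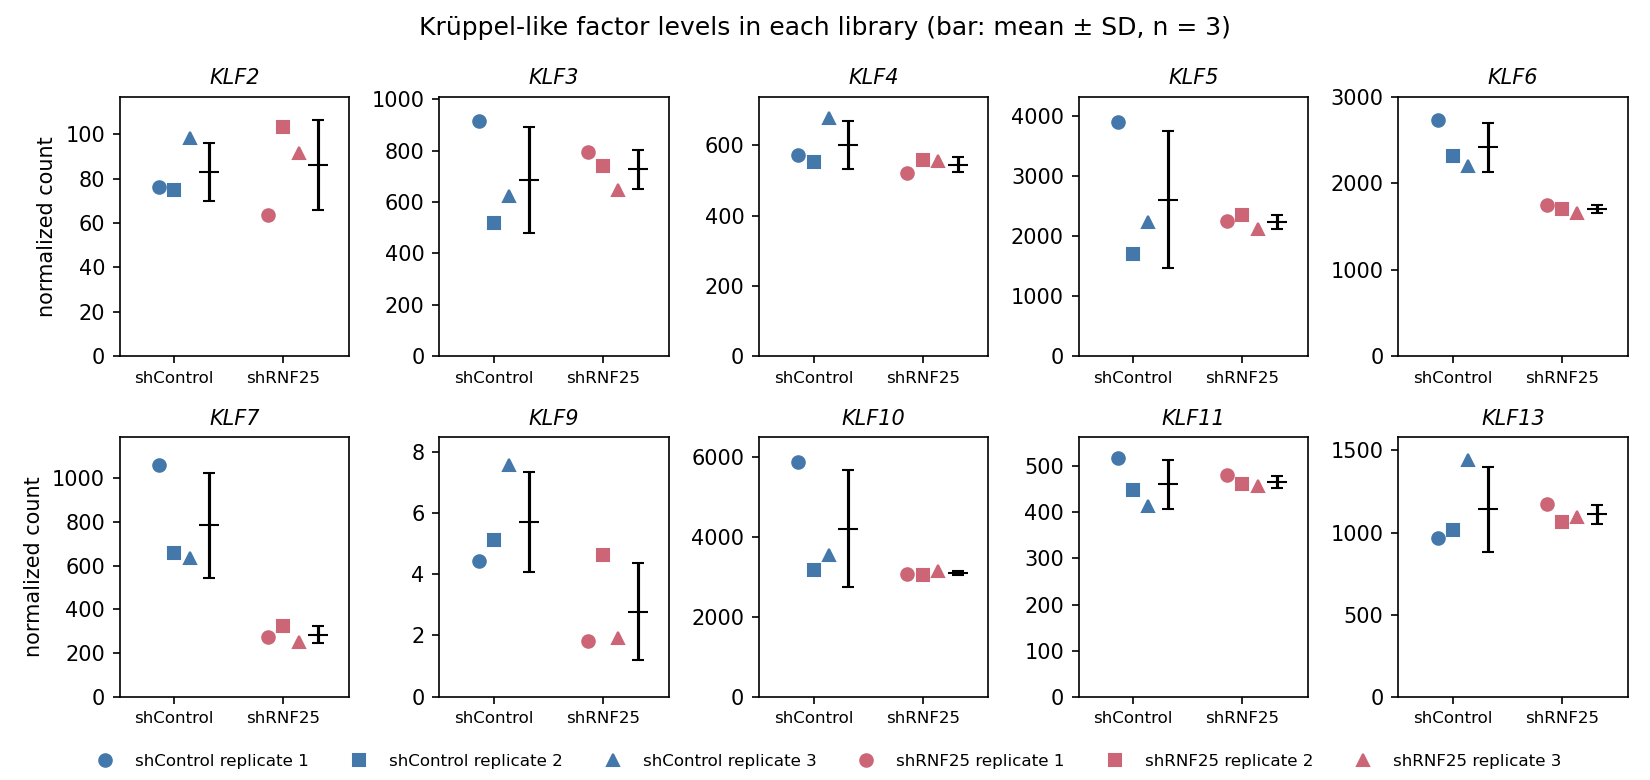
Normalized counts of the 10 Krüppel-like factors in each library, 1 panel per gene with its own axis, with points for single libraries and bars for the mean ± SD (n = 3 per group). KLF7, KLF6 and KLF10 stand lower in all 3 shRNF25 libraries, KLF10 only slightly below shControl replicate 2. The highest control is shControl replicate 1 for 6 of the 9 tested members.

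KLF2, KLF4 and KLF5 complete the activators. KLF2, which keeps endothelial cells and T cells quiescent, had normalized counts of 76.3, 74.9 and 98.2 in shControl and 63.8, 103.4 and 91.5 in shRNF25. Its groups overlapped throughout, and its log2 fold change was 0.03 (SE 0.22, 95% interval -0.46 to 0.53, adjusted p = 0.928). KLF4, a reprogramming factor that also drives terminal differentiation of barrier epithelia, had 572.6, 552.0 and 678.9 in shControl and 521.2, 559.6 and 554.8 in shRNF25. The groups overlapped at the lower end of the controls, with a log2 fold change of -0.14 (SE 0.12, 95% interval -0.41 to 0.14, adjusted p = 0.461).

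KLF5 promotes the growth of epithelial progenitors and lies on chromosome 13 from 73054976 to 73077542. Its normalized counts were 3888, 1697 and 2225.5 in shControl and 2246, 2342 and 2106 in shRNF25. A single control library, replicate 1, held the highest value and another, replicate 2, the lowest, with the shRNF25 libraries between them. The log2 fold change of -0.14 had an SE of 0.25 and a 95% interval from -0.70 to 0.43 (adjusted p = 0.738). It became 0.20 without shControl replicate 1 and -0.40 without shControl replicate 2, so its sign rested on which control was kept.

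KLF3 was the only member of the CtBP-binding group. It is known as a repressor in erythroid and fat cells and lies on chromosome 4 from 38664196 to 38701042 on the plus strand. Normalized counts were 917.5, 519.2 and 623.8 in shControl and 796.4, 739.7 and 647.2 in shRNF25, with overlapping groups. The log2 fold change was 0.12 (SE 0.20, 95% interval -0.32 to 0.56, adjusted p = 0.703), and it was 0.35 with an adjusted p of 0.0423, still under 1.5-fold, without shControl replicate 1.

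The gene on the opposite strand, KLF3-AS1, covers 266 exonic bases of KLF3 and is given because the annotation overlaps a member, outside the rule for named genes. Its normalized counts were 5.53, 6.16 and 4.32 in shControl and 25.5, 16.6 and 21.0 in shRNF25. KLF3-AS1 was called higher (log2 fold change 1.79, SE 0.32, adjusted p = 0.00454), from few reads and after passing the filter only through the shRNF25 libraries. The kit was stranded, but whether counting used the strand is not given in the sources used here. Reads of KLF3 and KLF3-AS1 in the shared bases cannot be told apart where counting did not use the strand. The same holds for KLF11, where AC104794.4 covers 416 exonic bases on the opposite strand.

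Among the SIN3-binding members, KLF10 had the highest level of the family. KLF10 is an early gene of TGF-β signaling on chromosome 8. Its normalized counts were 5888, 3179 and 3563 in shControl and 3082.5, 3053 and 3145.5 in shRNF25. Each shRNF25 library lay below each control, yet shControl replicate 2 stood only slightly above them and shControl replicate 1 far above. Before scaling, the reads of KLF10 overlapped between the groups. They were 5326, 3098 and 3301 in shControl and 3383, 3306 and 3300 in shRNF25. The means were 4210 ± 1466 (SD, n = 3) and 3094 ± 47.2 (SD, n = 3), and the log2 fold change of -0.39 had an SE of 0.20 and a 95% interval from -0.85 to 0.06 (adjusted p = 0.201). It was -0.12 without shControl replicate 1 and -0.57 without shControl replicate 2, and the adjusted p stayed between 0.0841 and 0.380 over the alternatives.

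KLF11, a relative of KLF10 that is also induced by TGF-β and that acts on the MAOA promoter, had normalized counts of 517.3, 449.4 and 414.5 in shControl and 481.1, 460.8 and 456.6 in shRNF25. All shRNF25 values lay within the range of the controls (log2 fold change 0.02, SE 0.12, 95% interval -0.26 to 0.30, adjusted p = 0.913). KLF13, known as an activator of CCL5 in T cells, had 965.1, 1016 and 1440 in shControl and 1174, 1064 and 1092 in shRNF25. The shRNF25 values again lay within the control range (log2 fold change -0.02, SE 0.16, 95% interval -0.37 to 0.33, adjusted p = 0.952).

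KLF9, a factor induced by glucocorticoids and thyroid hormone, was close to absent from the libraries. It had 4, 5 and 7 reads in shControl and 2, 5 and 2 reads in shRNF25, or normalized counts of 4.42, 5.13 and 7.56 against 1.82, 4.62 and 1.91. The groups overlapped, the exact permutation p was 0.2, and a difference was not detectable at this depth. Without the filter on low values its log2 fold change was -0.88 (SE 0.45, adjusted p = 0.267).

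**Figure D2:**
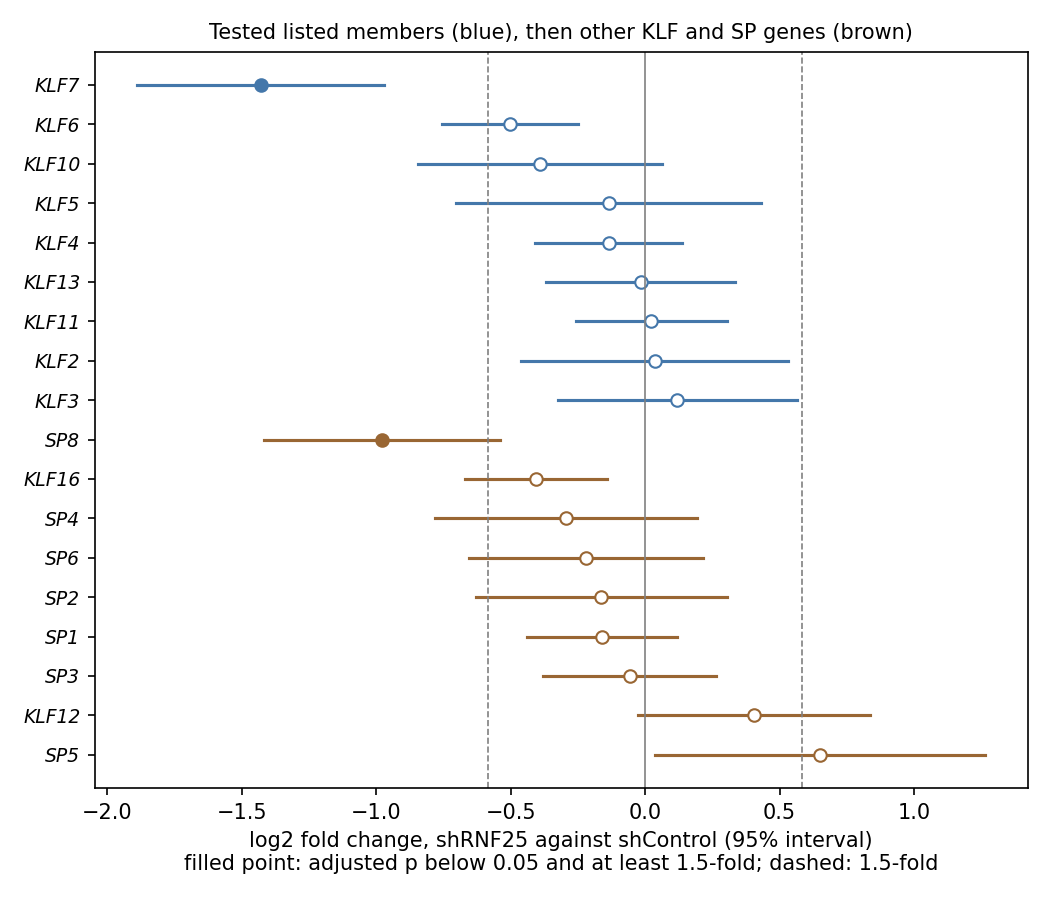
Log2 fold change of shRNF25 against shControl with its 95% limma interval (n = 3 per group) for the 9 tested members and the other tested KLF and SP genes, with filled points for called genes and dashed lines at 1.5-fold. KLF7 at -1.43 and SP8 at -0.98 are the filled points, and KLF6 at -0.50 lies between 0 and the dashed line.

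Across the 9 tested members the log2 fold change was below 0 for 6 and above 0 for 3, with a median of -0.14 beside -0.01 over all tested genes. For 5 of them (KLF2, KLF3, KLF4, KLF11 and KLF13) the whole 95% interval lay within 1.5-fold in both directions. The spread was unequal between the groups, whose library names also differ in form, and the cause was not tested. The coefficient of variation was 11.3 to 43.9% in shControl and 1.53 to 23.6% in shRNF25, and it was larger in shControl for 8 of 9 members, as for 83.3% of all tested genes. The highest control was replicate 1 for 6 members, replicate 3 for 3 and replicate 2 for 0. The summed normalized count of the 10 members was 16629, 10465 and 11885 in shControl and 10388, 10354 and 9999.9 in shRNF25. The shRNF25 sums lay just below the lowest control sum, and only shControl replicate 1 stood far above.

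**Figure D3:**
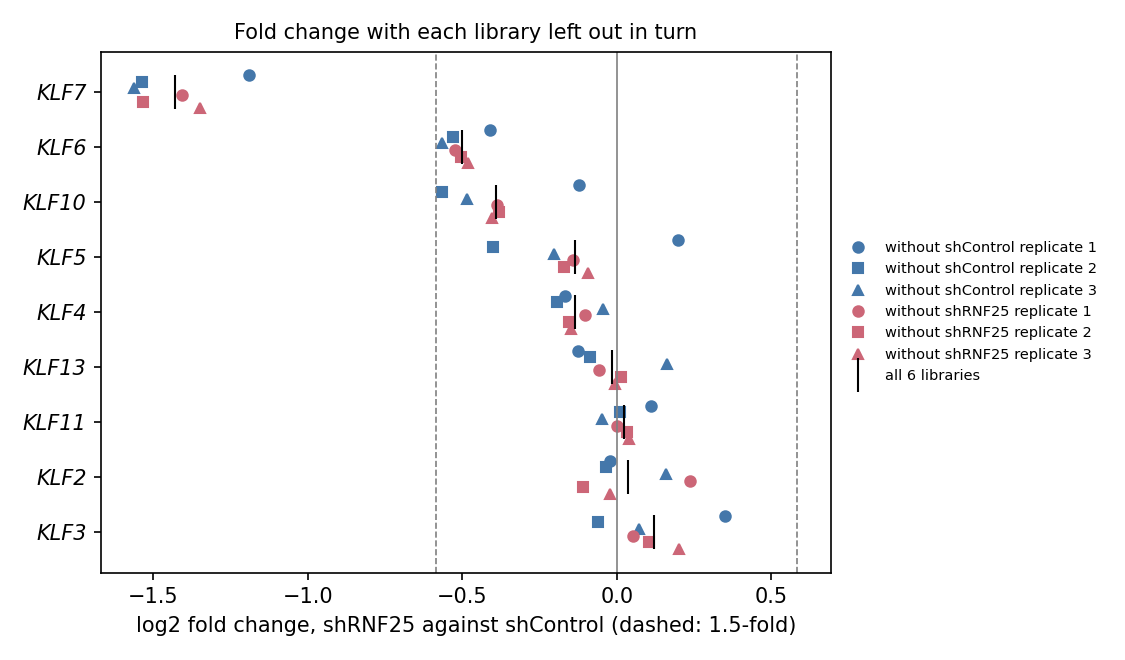
Log2 fold change of each tested member with all 6 libraries and with each library left out in turn. KLF7 stays between -1.56 and -1.19, whereas KLF5 moves from -0.40 to 0.20 and KLF10 from -0.57 to -0.12 as single control libraries are removed.

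Per kb of exon, a scale on which levels of different genes can be compared, KLF10 led in shControl with a normalized count of 1052 ± 366.2 (SD, n = 3) per kb. It was followed by KLF5 at 668.8 ± 293.7 and KLF6 at 393.9 ± 46.0. A middle group ran from KLF4 at 164.3 ± 18.6 through KLF13 at 121.2 ± 27.7, KLF3 at 109.1 ± 32.8 and KLF11 at 100.3 ± 11.4 to KLF7 at 84.7 ± 26.1. KLF13, KLF3, KLF11 and KLF7 each differed from the next in that order by less than the larger of their SDs. KLF2 was at 41.2 ± 6.48 and KLF9 at 1.10 ± 0.32.

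In shRNF25 the order was kept except that KLF7, at 30.7 ± 4.09 per kb (SD, n = 3), came after KLF2, at 42.7 ± 10.1. Single libraries of these 2 genes still overlapped, with KLF2 at 31.6 per kb in shRNF25 replicate 1 and KLF7 at 35.2 per kb in shRNF25 replicate 2. KLF10 remained in the lead at 772.9 ± 11.8 per kb, followed by KLF5 at 573.1 ± 30.5 and KLF6 at 277.0 ± 7.80. Of the summed level per kb of the 10 members, KLF7 made up 2.77 to 3.29% in the shControl libraries and 1.28 to 1.59% in the shRNF25 libraries.

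**Figure D4:**
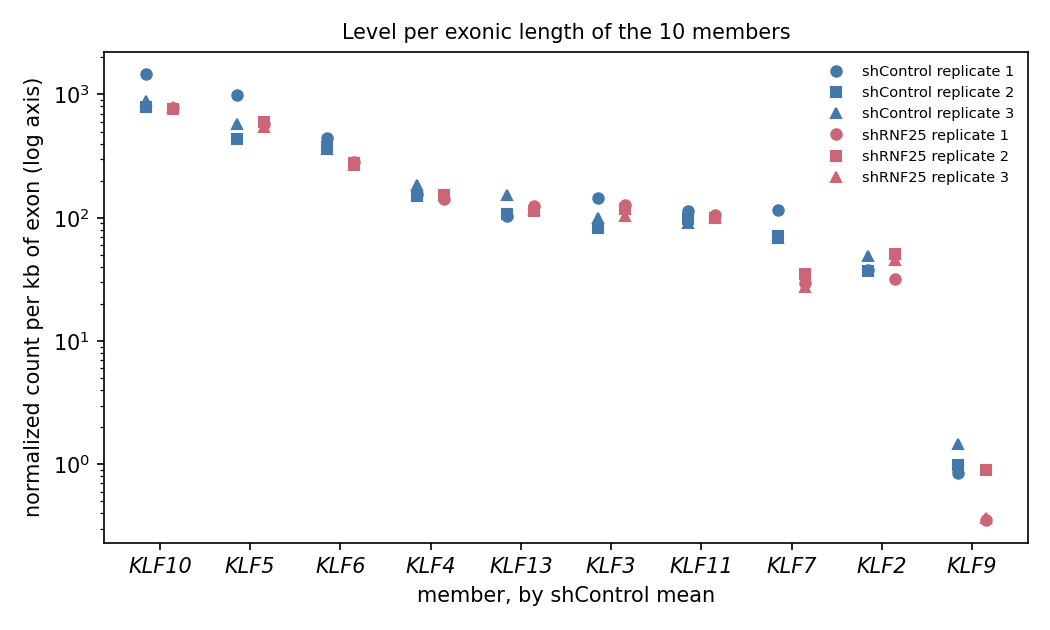
Normalized count per kb of exon of the 10 members in each library, on a logarithmic axis, ordered by the shControl mean, with the groups by color. KLF10, KLF5 and KLF6 stand highest, and KLF7 drops from 84.7 to 30.7 per kb on average, below KLF2.

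The 3 genes whose pattern over the 6 libraries lay nearest to that of KLF7, by Euclidean distance between centered log2 values, were OGFRL1 (distance 0.200), GLIPR1 (0.232) and PDK1 (0.274). OGFRL1 had normalized counts of 1484, 1025 and 925.0 in shControl and 375.4, 423.0 and 355.5 in shRNF25, with shControl replicate 1 highest as for KLF7. The median distance over all tested genes was 1.91. The nearest member was KLF6 at 1.22, followed by KLF10 at 1.32. These distances describe 6 libraries that fall into 2 groups, and genes with a similar fold change lie near each other for that reason.

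Of the other 7 KLF genes, 6 were in the table, and KLF12 and KLF16 passed the filter. KLF16, a SIN3-binding relative of KLF9 and KLF13, had normalized counts of 739.5, 828.0 and 906.6 in shControl and 594.1, 651.1 and 617.7 in shRNF25. Its groups did not overlap, and its log2 fold change of -0.40 (SE 0.12, adjusted p = 0.0381) was under 1.5-fold. KLF12, a CtBP-binding repressor like KLF3, had 436.7, 255.5 and 288.2 in shControl and 404.6, 413.7 and 446.1 in shRNF25, with overlapping groups (log2 fold change 0.40, adjusted p = 0.166). KLF1, KLF8, KLF15 and KLF17 lay below the filter.

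Among the SP factors, which bind the same GC-rich sites, 7 of the 8 in the table were tested, and 1 fell and 0 rose (median log2 fold change -0.16). The one that fell was SP8, a factor of limb and forebrain development, with normalized counts of 127.1, 108.8 and 158.7 in shControl and 65.6, 74.8 and 57.2 in shRNF25. SP8 did not overlap between the groups (log2 fold change -0.98, SE 0.20, adjusted p = 0.00780). SP1 and SP3, the abundant and broadly expressed members, had log2 fold changes of -0.16 and -0.06 and were not called.

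Genes for the proteins that KLF factors recruit were tested at the RNA level as a list of 11 cofactors. Of these, 1 rose and 0 fell (median log2 fold change 0.04), and 2 were higher and 2 lower at an adjusted p below 0.05 with any fold change. CREBBP, the acetyltransferase CBP, had normalized counts of 1990, 1306 and 1568 in shControl and 2395, 2726 and 2455 in shRNF25 (log2 fold change 0.66, SE 0.15, adjusted p = 0.0156). The other 3, under 1.5-fold, were the deacetylase HDAC1 (log2 fold change 0.49, adjusted p = 0.0203) and the corepressors CTBP2 (-0.39, adjusted p = 0.0189) and SIN3B (-0.39, adjusted p = 0.0247). None of the 7 tested ubiquitin ligases that act on KLF proteins was called by limma (median -0.11), while 2 had an adjusted p below 0.05 with a fold change under 1.5. They were SMURF1 (log2 fold change -0.45) and ITCH (-0.48).

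The kinase route from ERK5 to MEF2 factors, which induces KLF2 and KLF4 in endothelium, had 10 tested genes, with 1 higher, 0 lower and a median log2 fold change of 0.06. MEF2C, a MEF2 factor at its end, rose from 172.5, 107.7 and 124.1 in shControl to 367.2, 401.7 and 408.0 in shRNF25 (log2 fold change 1.56, SE 0.18, adjusted p = 0.000556). The MEF2 factors MEF2A and MEF2D had log2 fold changes of 0.23 and -0.30 and were not called. Their shControl means were 533.5 and 2096, beside 134.8 for MEF2C. MAPK7, which encodes ERK5, had a log2 fold change of -0.48 (adjusted p = 0.0247), under 1.5-fold. KLF2 and KLF4 themselves were not called.

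Genes known as targets of KLF2 and KLF4 in vessels moved both ways. This list, like the other lists of KLF targets below, does not record whether a factor raises or lowers each gene. The split and the median of such a list therefore give no direction of KLF activity. Of 12 listed, 11 were in the table and 6 were tested, and 3 of these rose and 3 fell (median log2 fold change -0.07). KDR, the main VEGF receptor, rose from 26.5, 29.8 and 17.3 in shControl to 88.4, 81.3 and 83.9 in shRNF25 (log2 fold change 1.78, SE 0.24, adjusted p = 0.00116). NOS3, the endothelial nitric oxide synthase, rose from 9.95, 20.5 and 23.7 to 63.8, 56.3 and 50.5 (log2 fold change 1.68, SE 0.32, adjusted p = 0.00632). NOS3 passed the filter only through the shRNF25 libraries, with 9, 20 and 22 reads in shControl. ASS1, an enzyme of arginine synthesis, fell with a log2 fold change of -1.03 and the sphingosine phosphate receptor S1PR1 with -0.80. TXNIP was the other gene that rose, and EDN1 was the other that fell.

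Among targets of KLF4 and KLF5 in epithelia, 10 genes were tested, of which 0 rose and 1 fell (median log2 fold change -0.08), and 1 was higher and 3 lower at an adjusted p below 0.05 with any fold change. The gene that fell was CDKN1A, the cell cycle inhibitor p21, with normalized counts of 1529, 2145 and 2711 in shControl and 1046, 906.0 and 969.4 in shRNF25 (log2 fold change -1.09, SE 0.19, adjusted p = 0.00393). Of 8 tested targets of KLF6, 0 rose and 2 fell (median -0.43). At an adjusted p below 0.05 with any fold change, 0 were higher and 5 lower, where 10.8% of all tested genes were lower. Other lists passed that share too. The vascular targets had 3 higher and 3 lower of 6, and the glucocorticoid-response genes described below had 1 higher and 3 lower of 9. The lists were chosen with earlier results known, and a link to KLF6 was not tested. PLAU, the urokinase plasminogen activator, fell from 31627, 43303 and 31024 to 13156, 11845 and 13904 (log2 fold change -1.43, SE 0.15, adjusted p = 0.000318). PDGFB fell with a log2 fold change of -0.63 (adjusted p = 0.0356).

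The list of single targets of KLF3, KLF11 and KLF13 held 3 tested genes, of which 0 rose and 1 fell (median log2 fold change -0.63). MAOA, a monoamine oxidase and target of KLF11, fell from 1208, 1286 and 1247 to 467.4, 361.1 and 371.7 (log2 fold change -1.65, SE 0.13, adjusted p = 6.95e-05), while KLF11 was not called. LGALS3, a target of KLF3, and CCL5, a target of KLF13, had log2 fold changes of 0.17 and -0.63 and were not called.

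Genes that respond to the same signals as KLF9, KLF10 and KLF11 also split. Of 9 tested glucocorticoid-response genes, 1 rose and 3 fell (median log2 fold change -0.19). MT2A, a metallothionein, fell with a log2 fold change of -1.98, ERRFI1 with -1.30 and the kinase SGK1 with -0.93, and CRISPLD2 rose with 0.60. FKBP5 and PER1 had log2 fold changes of -0.14 and -0.01 and were not called. TSC22D3 (log2 fold change 0.45, limma adjusted p = 0.0906) and DUSP1 (-0.56, adjusted p = 0.135) were not called either.

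Of 11 tested early genes of TGF-β signaling, 2 rose and 1 fell (median log2 fold change 0.06), and 2 were higher and 3 lower at an adjusted p below 0.05 with any fold change. TGFBI, a matrix protein, had normalized counts of 317.3, 343.7 and 690.7 in shControl and 23.7, 26.8 and 20.0 in shRNF25 (log2 fold change -4.12, SE 0.29, adjusted p = 3.6e-05). By contrast, CCN2 rose with a log2 fold change of 1.67 and the inhibitory SMAD6 with 1.64. KLF10 and KLF11, which belong to the same early response, were not called.

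Of 16 tested immediate-early genes, the class of rapid responders to growth factors to which KLF6 and KLF10 are often counted, 3 rose and 2 fell (median log2 fold change -0.10). FOS rose from 157.0, 181.6 and 564.5 in shControl to 1883, 2088 and 2087.5 in shRNF25 (log2 fold change 2.99, SE 0.40, adjusted p = 0.00114). FOSB rose with a log2 fold change of 2.51. IER3, an early gene that also protects from cell death, fell with a log2 fold change of -2.06, and MYC with -0.75. The 5 called genes thus went in both directions, and shControl replicate 3 was the highest control for FOS.

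**Figure D5:**
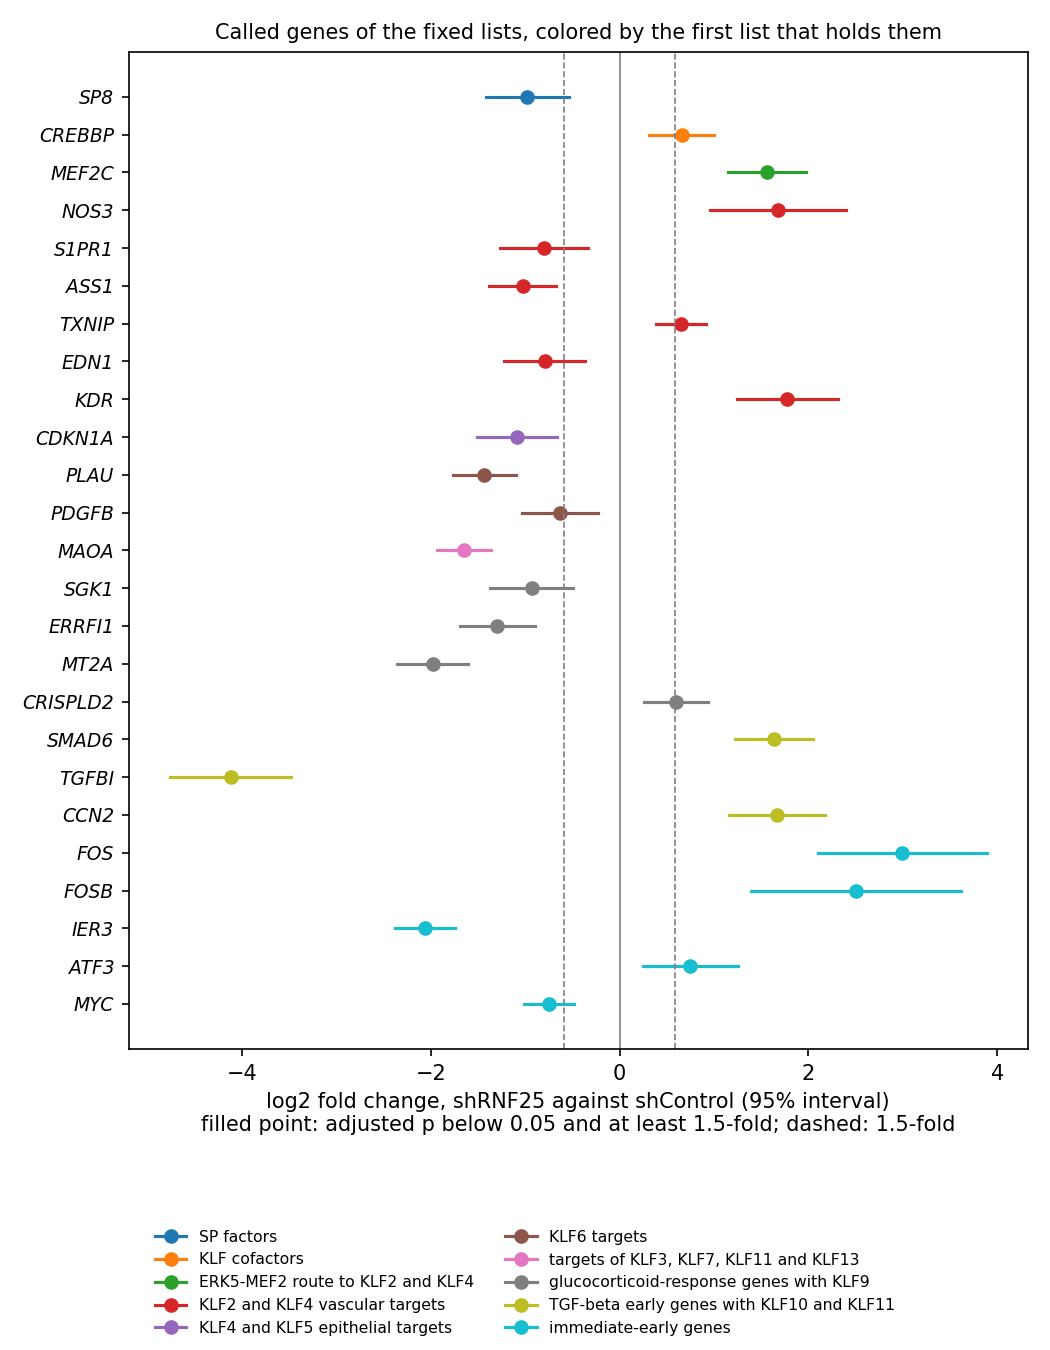
Log2 fold change of shRNF25 against shControl with its 95% limma interval (n = 3 per group) for genes of the fixed lists that passed both thresholds. The lists of members and of cell type markers are left out. Colors give the first list that holds a gene, and dashed lines stand at 1.5-fold. FOS at 2.99 and TGFBI at -4.12 mark the ends of the range among the genes shown, and the vascular targets of KLF2 and KLF4 lie on both sides of 0.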

How the data were processed

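Total RNA of 6 SW839 libraries, 3 per group, was depleted of ribosomal RNA and sequenced from a stranded kit, per the study's methods. The processing notes name fastp, HISAT2, HTSeq and GRCh38. The annotation and the strand setting of the counting are not given in the sources used here. The authors deposited normalized counts per gene symbol, a signal made by dividing read counts by 1 scaling factor per library, and the methods name DESeq2 for the study's own test. Dividing by the smallest step of each library gave whole reads (within 0.1 reads) for 100% of values, and these recovered reads were used only for depth and as input to the alternatives.

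Values were transformed as log2(normalized count + 1), a scale that understates changes of low genes. The 16554 genes with at least 10 in at least 3 libraries were fitted in R 4.3.3 with the lmFit and trended eBayes functions of limma 3.58.1, with the group alone in the model. Adjusted p-values are Benjamini-Hochberg values over all of these genes, SEs are moderated, and a call needed an adjusted p below 0.05 together with a change of 1.5-fold or more, the criteria in the study's methods. Single members were also compared with a two-sided exact permutation test. The code was tested on simulated data.

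Positions and exon lengths came from GENCODE 29, matched by symbol, and promoters from RefSeq. Protein sequences were not used here. The members and gene lists were chosen with earlier results of these data known. Some genes of the lists are not reported here and were left out of the lists' counts and medians. The text names all 10 members, all KLF and SP genes with a value where useful, up to 4 called genes per list with the largest absolute log2 fold change, RNF25, and the 3 genes nearest to KLF7. TXNIP, EDN1, HDAC1, CTBP2, SIN3B, STK36, SMURF1, ITCH, MAPK7, LGALS3, CCL5, FKBP5, PER1, KLF3-AS1, KLF7-IT1, AC104794.4 and the marker genes are named in addition, after their values had been seen. MEF2A, MEF2D, TSC22D3 and DUSP1 were added in the same way. The design text calls the libraries biological replicates without saying what was separate, and p-values measure the spread between them. Alternatives were other pseudocounts (0.5 and 5), filters (none, or at least 50), scalings (quantile, median ratio) and fold thresholds (2, or none), edgeR 4.0.16 and DESeq2 1.42.0, a replicate block, and each library left out in turn.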

Additional observations from a re-analysis of the deposited data

How the results depend on the processing

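KLF7 was called in all 16 alternatives run for single members, with adjusted p-values from 3.05e-09 (DESeq2) to 0.0135 (without shRNF25 replicate 1). KLF6 had an adjusted p below 0.05 in 13 of these 16, the exceptions being the refits without an shRNF25 library, and was not called in any. Over 18 settings, 0 members were called higher in all 18 and 1 lower in 17, with 2 lower under no minimum fold change. Over all tested genes, 1785 were lower with no minimum fold change, 898 were higher under the stricter filter of 50 in 3 libraries, and 893 higher and 513 lower with a fold change of at least 2, against 1432 higher and 1175 lower. Leaving out single libraries gave 748 to 1725 genes higher and 813 to 1269 lower, the smallest counts of higher genes being 748, 824 and 831 without shRNF25 replicates 1, 2 and 3. Members that were not called changed sign as follows, and the cause was not tested. Quantile normalization gave log2 fold changes of -0.0761 for KLF2 and 0.0737 for KLF13, and rescaling on the median ratio gave 0.0494 for KLF13. With single libraries left out, the log2 fold change ran from -0.11 to 0.24 for KLF2, from -0.0612 to 0.35 for KLF3, from -0.40 to 0.20 for KLF5, from -0.0490 to 0.11 for KLF11 and from -0.12 to 0.16 for KLF13. Same-numbered libraries did not deviate together (correlations of -0.0638, -0.0874 and 0.0471), and no library correlated best with its own number. With the replicate block, KLF7 had a log2 fold change of -1.43 (adjusted p = 0.000251), the members called remained 0 higher and 1 lower, and 1398 genes were higher and 1193 lower. Library weights by group, added after seeing the data, gave 1341 higher and 1148 lower genes. Depth limits KLF9, whose 2 to 7 reads per library allow no statement on its direction.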
